A study of Mus musculus with 16 samples.

Results

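The sarcomeric myosin heavy chains examined here are the 7 genes Myh3, Myh8, Myh1, Myh2, Myh4, Myh7 and Myh6. They were taken by symbol from a table of 35275 genes measured in C2C12, a mouse muscle cell line whose myoblasts stop dividing and fuse into myotubes once serum is withdrawn. Poly(A) RNA was sequenced from 2 control populations (lines 1 and 2, wild-type by label) and from 2 clones (1 and 2) in which miR-1a-1, miR-1a-2 and also miR-206 were knocked out (tKO, for triple knockout). Each was sampled in growth medium with 20% serum (GM) and after 3 days in 2% horse serum (DM3), as 2 cultures (1 and 2), which gives 4 groups of 4 libraries. All cells were labelled PAX7 negative. The knockout was represented by 2 clones and the control by 2 populations, so effects of the deletion and of clonal selection cannot be told apart. The labels do not state how separate the cultures were, and p-values measure the spread between these libraries.

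Myosin heavy chain is the motor of the thick filament, and each muscle fibre type uses its own isoform. In developing muscle the embryonic (Myh3) and perinatal (Myh8) chains precede the adult fast chains IIx (Myh1), IIa (Myh2) and IIb (Myh4), while Myh7 serves slow fibres and the ventricle and Myh6 encodes the cardiac alpha chain. The fast and developmental genes lie side by side in a cluster, and the slow and cardiac pair lies in another. The microRNAs removed here belong to a muscle family that represses transcripts by pairing of the seed with their 3′ UTRs.

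Depth was 22642563 to 56585952 fragments per library. The cells were checked against marker lists. Pax7 lay between 0 and 0.0238 FPKM (FPKM scales a gene's fragments to its length and to library depth) in all 16 libraries. Myf5, a determination factor of myoblasts, was present at 8.94 to 27.2 FPKM. Myod1 was at 0 FPKM in every control GM library and at most 0.0546 FPKM in tKO GM, against 0.746 to 3.41 FPKM in DM3. Desmin (Des), the muscle intermediate filament, was at 9.22 to 47.8 FPKM in GM and 80.2 to 415 FPKM in DM3. Of 7 heart markers, Nppa and Hcn4 did not exceed 0.149 and 0.0349 FPKM, but Nkx2-5 was at 8.34 to 22.9 FPKM over the 16 libraries. Myl7 and Nppb reached 5.39 and 2.66 FPKM in tKO GM, and Tnni3 reached 1.56 FPKM in tKO DM3. Ryr2 went the other way between genotypes in DM3, at 0.439 to 0.860 FPKM in control and 0.0455 to 0.183 FPKM in tKO. The smooth muscle list summed to 1893 to 6132 FPKM in GM and 783 to 1545 FPKM in DM3, mostly Acta2, and the fibroblast list to 503 to 1419 FPKM and 1689 to 3296 FPKM. Between genotypes in DM3, Dcn (decorin) was the 1 gene called among the markers of these 3 lists, lower in tKO by a log2 change of -1.65 (limma adjusted p = 0.0145). In GM, Pdgfra of the fibroblast list was called lower in tKO, by -1.27 (limma adjusted p = 0.00477). Cdh15 of the myoblast list was called higher in tKO GM, by 1.47 (limma adjusted p = 0.00059). The part of these genes in the heavy chain values was not tested.

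The sequences shown first are those that bear on the family's grouping. miR-206-3p, the deleted microRNA for which RefSeq (GRCm38.p6) gave a mature sequence, is encoded at chr1:20679055-20679076 on the plus strand. Capitals mark its seed, bases 2 to 8.
miR-206-3p: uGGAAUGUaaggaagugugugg
The match to this seed, ACATTCC, was absent from the longest annotated 3′ UTR (GENCODE release M21) of each of the 7 heavy chain genes, which were 60 to 1645 bases long. It was present in 2117 of 21020 genes with such a 3′ UTR (10.1%). These counts describe letters in annotated UTRs only.

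The 250 bases before the RefSeq start site were compared among the members, and all 7 had an entry. Myh8, Myh1, Myh2 and Myh4 shared a run of 14 bases on the same strand. It was picked as the longest run common to these 4 genes, so its presence in them was set beforehand. It was found, on either strand, in 4 of 32536 upstream windows of the mouse table (0.0123%), which were those 4 genes, and not in Myh3, Myh7 or Myh6. How rare other runs of this length are was not counted. The stretches below are 80 bases each, on the plus strand of GRCm38.p6, with the shared run in capitals.
Myh8: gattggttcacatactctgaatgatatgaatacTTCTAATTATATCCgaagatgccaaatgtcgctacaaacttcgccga
Myh1: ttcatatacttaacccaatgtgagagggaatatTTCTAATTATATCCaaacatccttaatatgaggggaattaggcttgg
Myh2: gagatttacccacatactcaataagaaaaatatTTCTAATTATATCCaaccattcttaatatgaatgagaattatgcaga
Myh4: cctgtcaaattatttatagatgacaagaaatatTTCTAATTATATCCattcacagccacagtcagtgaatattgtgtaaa
They lie at chr11:67277037-67277116 (Myh8), chr11:67199909-67199988 (Myh1), chr11:67170869-67170948 (Myh2) and chr11:67237621-67237700 (Myh4). The run begins 54, 160, 125 and 158 bases before the respective start sites. By pairs, the longest run shared by these 4 windows was 14 to 22 bases, against 8 to 11 bases between Myh3 and any other member.
Myh3: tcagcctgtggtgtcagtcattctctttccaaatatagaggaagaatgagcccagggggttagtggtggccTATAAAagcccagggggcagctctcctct
This stretch of Myh3 is the last 100 bases before its start site (chr11:67078200-67078299, plus strand), and capitals mark TATAAA, 29 bases upstream. TATAAA, searched on both strands, was also found in Myh8, Myh1 and Myh4 and in 12.3% of all upstream windows. The E-box CANNTG was found in 66.2% of all windows, once in Myh3, and not in Myh1 or Myh2. The MEF2 motif was found once each in Myh8, Myh1 and Myh4, where it overlaps a TATAAA, and in 2.89% of all windows. A match is a description of these letters, not evidence of binding.

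On chromosome 11 the table places Myh3 at chr11:67078300-67102291, Myh2 at chr11:67171027-67197517, Myh1 at chr11:67200052-67224575, Myh4 at chr11:67238029-67260446 and Myh8 at chr11:67277124-67308634. All are protein-coding genes on the plus strand. Myh6 (chr14:54941921-54966927) and Myh7 (chr14:54970688-54994634) are on the minus strand of chromosome 14. The 2 clusters hold 3 other listed genes each, of which 4 of 6 had no fragment in any library. Sco1, the nearest gene before Myh3 and a mitochondrial copper chaperone, averaged 5.63 FPKM over the 16 libraries. Myh13, the extraocular heavy chain that follows Myh8, averaged 0.0253 FPKM.

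Myh3, the embryonic chain, was nearly the whole heavy chain signal, and its level depended on stage. In GM it had 0 to 2 fragments per library. In control DM3 it was at 16.1 and 14.01 FPKM in line 1 (cultures 1 and 2) and at 7.14 and 13.4 FPKM in line 2. In tKO DM3 it was at 66.3 and 15.8 FPKM in clone 1 and at 79.5 and 18.6 FPKM in clone 2. The GM and DM3 ranges did not overlap in either genotype. Pooled over libraries, 12595 fragments in control DM3 stood against 5 in control GM, a depth-adjusted ratio of 1979 (exact 95% interval 848 to 6096, counting error only). In tKO, 32362 fragments stood against 1, a ratio of 30940 (5553 to 1222000).

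Only Myh3 had a mean of at least 0.5 FPKM over the 16 libraries (14.4 FPKM) and entered the limma fit of 11832 genes on log2(FPKM + 1). It rose from GM to DM3 by a log2 change of 3.71 (SE 0.39, limma adjusted p = 8.72e-07) in control and 5.19 (SE 0.39, limma adjusted p = 2.71e-08) in tKO. Of all tested genes, 23.2% were called higher and 38.3% lower from GM to DM3 in control, and 24.9% higher and 36.0% lower in tKO. With median-of-ratios scaling, which moved the median of all genes in control from -0.15 to 0.01, the control calls were 3611 higher and 3631 lower in place of 2743 and 4529. Myh3 stayed called under every alternative run for the 2 stage comparisons.

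**Figure D1:**
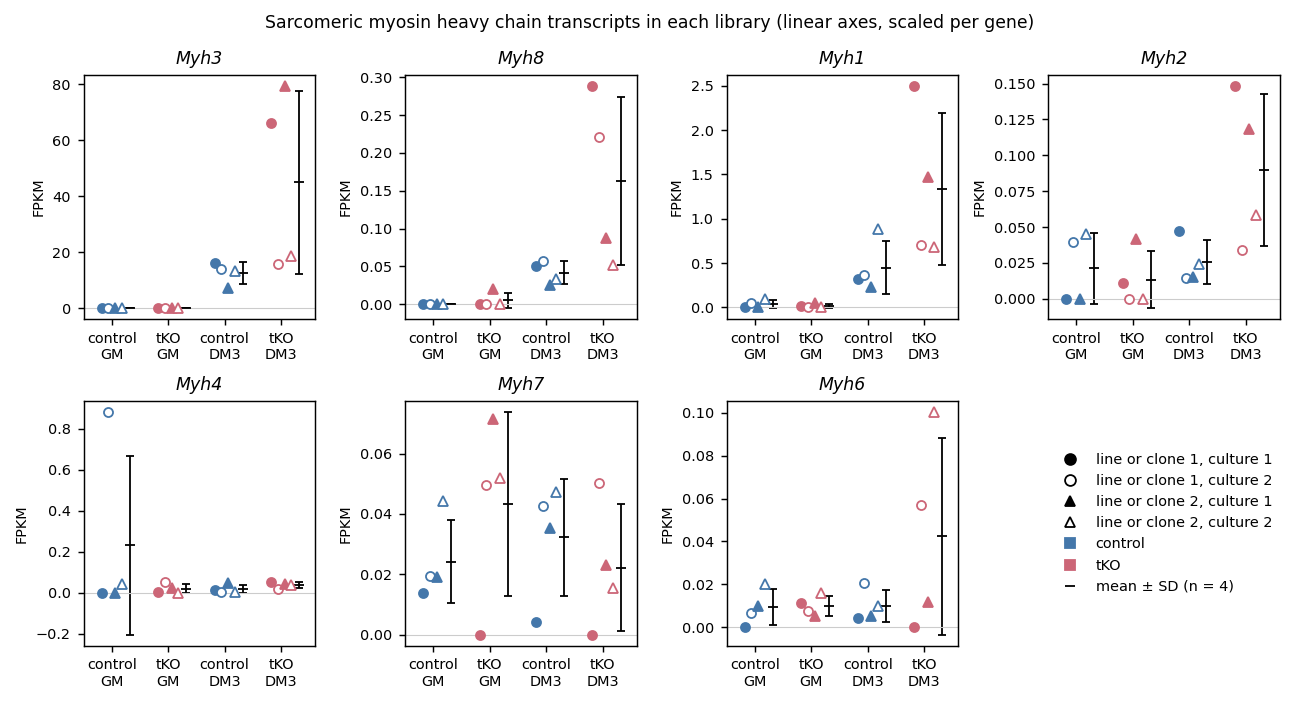
FPKM of each heavy chain gene in the 16 libraries, on linear axes scaled per gene; colour gives genotype, shape the line or clone, fill the culture, and bars the mean ± SD of 4 libraries. Myh3 reaches 79.5 FPKM in tKO DM3, Myh1 reaches 2.50 FPKM, and the single high point of Myh4 is a control GM library at 0.883 FPKM.

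In DM3 the mean of Myh3 was 45.1 ± 32.7 FPKM in tKO (SD, n = 4) and 12.7 ± 3.87 FPKM in control (SD, n = 4), a ratio of means of 3.56. The ranges overlapped, since the lowest tKO library (15.8 FPKM) was below the highest control library (16.1 FPKM). The log2 change was 1.47 (SE 0.39, limma adjusted p = 0.0512), just outside the threshold of 0.05, and 3.38% of all tested genes (400) were called in this comparison. Leaving out 1 library gave between 208 and 854 such calls. It passed in 6 of 32 alternatives, among them those in which the 2 cultures of a line were averaged (limma adjusted p = 0.0159), on the TPM scale (0.0468), and without clone 1 culture 2 (0.0133) or clone 2 culture 2 (0.0220), and over all alternatives the limma adjusted p ran from 0.0133 to 0.502. The genotype by stage interaction was 1.48 (SE 0.56, limma adjusted p = 0.337), where 0.254% of genes were called. In GM the change of Myh3 was -0.01 (SE 0.39, limma adjusted p = 0.995), with 2.06% of genes called. Thus 0 of the 1 fitted member was called by limma between genotypes at either stage; in DM3 the unadjusted p of Myh3 was 0.00178, and voom on fragment numbers gave an adjusted p of 0.0517.

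The excess of Myh3 in tKO sat mainly in culture 1. In culture 1 the 2 clones averaged 72.9 FPKM and the 2 control lines 11.6 FPKM, a ratio of 6.27. In culture 2 they averaged 17.2 and 13.7 FPKM, a ratio of 1.26. In each culture both clones were above both control lines, although 2 against 2 cannot give an exact p under 0.333. Culture 1 exceeded culture 2 by 4.202-fold in clone 1 and 4.279-fold in clone 2. The same ratio was 1.15 in control line 1 and 0.534 in control line 2.

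Some other contractile genes moved with the culture too. Mylpf, the fast regulatory light chain, was at 451 and 466 FPKM in culture 1 of clones 1 and 2 but at 104 and 167 FPKM in culture 2, against 275 to 383 FPKM in control DM3. The muscle creatine kinase gene Ckm was at 23.0 and 21.8 FPKM in culture 1 of the clones and at 5.50 and 5.47 FPKM in culture 2. Not all contractile genes split this widely. The fast fibre gene Actn3 spanned 120 to 178 FPKM over the tKO DM3 libraries, and the M-band gene Myom2 spanned 66.1 to 115 FPKM. Summed over the 5 genes of the myotube marker list, tKO DM3 spanned 152 to 752 FPKM and control DM3 355 to 698 FPKM. The part of differentiation extent in the Myh3 difference was not tested. In bulk RNA, fewer differentiated cells and less RNA per cell cannot be told apart.

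**Figure D2:**
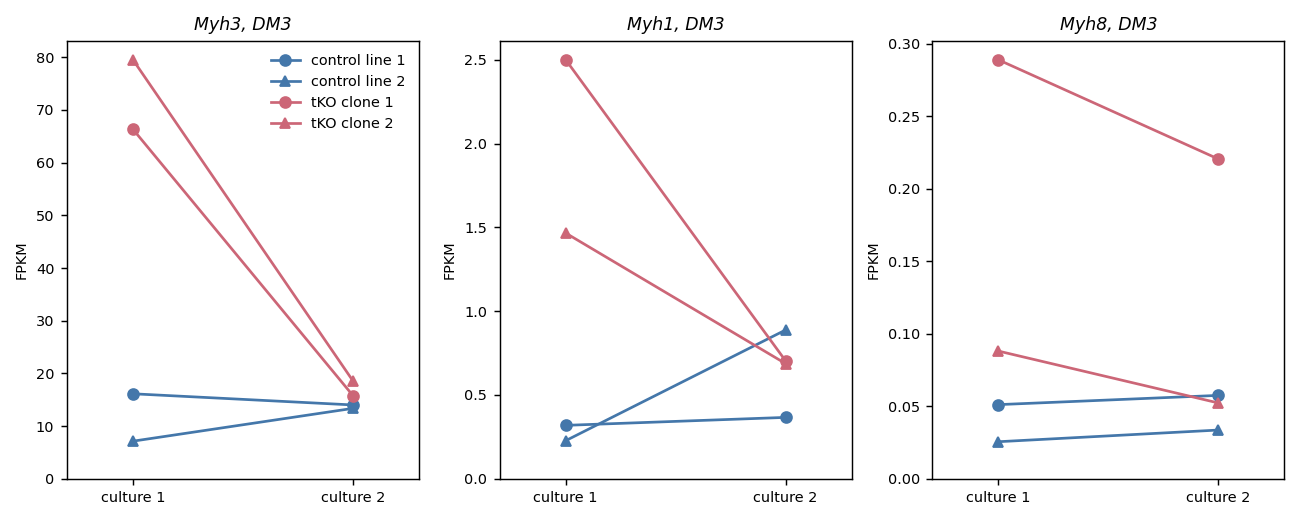
FPKM of Myh3, Myh1 and Myh8 in the 8 DM3 libraries, with the 2 cultures of each line or clone joined. Myh3 in both clones is higher in culture 1 (66.3 and 79.5 FPKM) than in culture 2 (15.8 and 18.6 FPKM), while the control lines stay between 7.14 and 16.1 FPKM.

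Myh8, the perinatal chain, was the only member with no fragment in any control GM library. In tKO GM it had 4 fragments (0.0207 FPKM) in clone 2 culture 1 and none in the other 3 libraries. In control DM3 it was at 0.0511 and 0.0575 FPKM in line 1 and at 0.0255 and 0.0336 FPKM in line 2. In tKO DM3 it was at 0.289 and 0.220 FPKM in clone 1 and at 0.0880 and 0.0522 FPKM in clone 2. DM3 lay above GM without overlap in both genotypes (exact permutation test, two-sided p = 0.0286 each, the smallest that 4 against 4 allows). The control mean was at least 2.14-fold higher in DM3 than a floor of 3 fragments per library allows in GM. The tKO to control ratio in DM3 was 3.87 (exact permutation p = 0.0571), with overlap, and clone 1 was above clone 2 in both cultures.

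Myh1, the IIx chain, came second in abundance and just missed the 0.5 FPKM filter, with a mean of 0.461 FPKM over 16 libraries. In GM it had 0 to 20 fragments. In control DM3 it was at 0.319 and 0.366 FPKM in line 1 and at 0.227 and 0.888 FPKM in line 2. In tKO DM3 it was at 2.50 and 0.703 FPKM in clone 1 and at 1.47 and 0.687 FPKM in clone 2. The mean rose 11.8-fold from GM to DM3 in control (exact permutation p = 0.0286), and in tKO 988 fragments in DM3 stood against 13 in GM, a depth-adjusted ratio of 72.7 (95% interval 42.3 to 137, exact permutation p = 0.0286). These ranges did not overlap. Control GM line 2 culture 2 held 20 of the 28 GM fragments, and without it the fold of means in control was 26.4. In tKO GM, clone 2 culture 1 held 10 of the 13, and without it the depth-adjusted ratio was 229 (95% interval 78.0 to 1110).

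Between genotypes in DM3 the ratio of Myh1 was 2.98 (exact permutation p = 0.0857). It was 7.26 in culture 1 and 1.11 in culture 2, where the control line 2 library was the highest. The order of cultures in the clones was thus the order seen for Myh3, with ratios of culture 1 to culture 2 of 3.56 and 2.13.

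Myh2, the IIa chain, was near the floor. In control it had 0 to 9 fragments per library in GM and 3 to 11 in DM3, and the means were 0.0213 ± 0.0247 and 0.0254 ± 0.0153 FPKM (SD, n = 4; exact permutation p = 0.771). In tKO DM3 it was at 0.149 and 0.0343 FPKM in clone 1 and at 0.119 and 0.0581 FPKM in clone 2, against 0 to 0.0419 FPKM in tKO GM (exact permutation p = 0.0571). The tKO to control ratio in DM3 was 3.54 (exact permutation p = 0.0571). All 4 tKO DM3 libraries were above 3 of the 4 control DM3 libraries.

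Myh4 is the IIb chain of the fastest fibres. Its highest value was in control GM, line 1 culture 2, at 0.883 FPKM (132 fragments), while the other 3 control GM libraries had 0, 0 and 8 fragments. In DM3 it was at 0.00491 to 0.0470 FPKM in control and at 0.0173 to 0.0518 FPKM in tKO (exact permutation p = 0.171). The control GM mean of 0.231 ± 0.435 FPKM (SD, n = 4) became 0.0136 ± 0.0236 FPKM (n = 3) without that library, and the sign of both comparisons that use control GM then turned.

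The same library was the highest of the 8 GM libraries for 7 of 7 genes of the fast fibre list, against 11.8% of all genes with a fragment in GM, and for 0 of 7 genes of the slow and cardiac list. The 7 include Tnnc2, with 1 fragment there and none elsewhere, and Actn3, at 3.72 FPKM against at most 3.37 FPKM. The fast heavy chains Myh1 and Myh2 were not highest there, at 0.0463 and 0.0397 FPKM against 0.101 and 0.0454 FPKM in the highest other GM library. Tnnt3, fast troponin T, was at 2.01 FPKM there and at most 0.344 FPKM in the other 7. Pvalb, a calcium buffer of fast fibres, was at 0.906 FPKM (22 fragments) against at most 0.182 FPKM, and Atp2a1, the fast calcium pump, at 0.810 FPKM against at most 0.183 FPKM. The library was singled out after its values were seen, and the source of these transcripts was not tested.

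Myh7 and Myh6, the slow and cardiac chains, stayed near the detection floor. Myh7 had 0 to 15 fragments in any library, with means of 0.0241 ± 0.0137 FPKM in control GM, 0.0433 ± 0.0305 FPKM in tKO GM, 0.0324 ± 0.0194 FPKM in control DM3 and 0.0222 ± 0.0210 FPKM in tKO DM3 (SD, n = 4 each). None of its 4 comparisons gave an exact permutation p under 0.314. Myh6 had at most 7 fragments in control and tKO GM and control DM3. In tKO DM3 it had 10 and 19 fragments in culture 2 of clones 1 and 2 and 0 and 2 in culture 1 (tKO against control, exact permutation p = 0.314). The culture with more Myh6 was therefore the culture with less Myh3, at counts too low to compare further.

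The exact tests of the 6 low members numbered 24 in all. With no filter on low values, 23576 genes entered the limma fit, and 32.5% of them were called from GM to DM3 in control and 33.5% in tKO. In that fit Myh3, Myh1 (limma adjusted p = 0.000289), Myh8 (0.00278) and Myh2 (0.0108) were called in tKO, while in control Myh3 alone was called and Myh1 had a limma adjusted p of 0.0845.

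The summed FPKM of the 7 genes ranged between 7.49 and 16.6 in the control DM3 libraries and between 16.9 and 81.3 in the tKO DM3 libraries, and most of it was Myh3 in both. Myh3 made up 95.5% ± 1.9 of it in control and 95.6% ± 1.76 in tKO (SD, n = 4 each). Myh1 made up 3.42% ± 1.9 and 3.27% ± 1.02. Myh8 followed with 0.320% ± 0.0678 in control and 0.525% ± 0.536 in tKO, where clone 1 culture 2 held the highest share of 1.31%. The remaining 4 genes were each under 0.3% on average in both genotypes, and their order did not stand out from their spread. In GM the sum was 0.0185 to 1.00 FPKM, too few fragments (4 to 150) to give shares meaning.

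**Figure D3:**
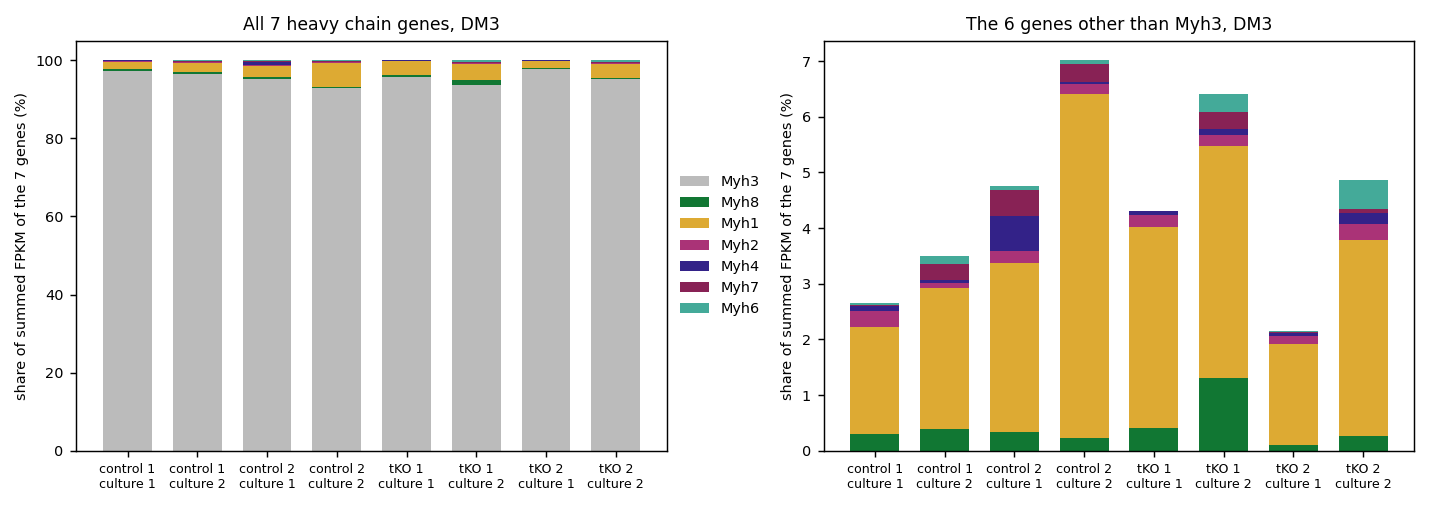
Share of each gene in the summed FPKM of the 7 heavy chain genes in the 8 DM3 libraries, for all 7 genes (left) and with Myh3 left out of the drawing on a wider scale (right). Myh3 takes 93.0% to 97.8% in every library, and most of the rest is Myh1.

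How far the genes can be told apart was read from the GENCODE transcripts. None of the 100-base windows of the longest Myh3 transcript was identical to a window of another member. For Myh1 and Myh2 the share of such windows was 9.46% and 9.17%, for Myh8 and Myh4 5.17% and 3.85%, and for Myh7 and Myh6 11.2% and 11.4%. With 50-base windows, 3.66% of Myh3 and 26.1% of Myh1 windows were shared. At 50 bases, 1.81% of Myh2, 1.59% of Myh1, 1.54% of Myh8 and 0.922% of Myh4 windows were identical to a Myh3 window. For Myh7 and Myh6 that share was 0. These shares do not give the size of a counting error, since Myh3 was far more abundant. In tKO DM3 it averaged 45.1 FPKM, against 1.34 FPKM for Myh1 and 0.0899 FPKM for Myh2. The part of Myh3 fragments in the values and tKO to control ratios of other members was not tested. The read length and the handling of multiply mapped reads are not given in the sources used here, so the values of the 6 members other than Myh3 are uncertain. Strand use in counting is likewise not given, and the antisense genes 9430073C21Rik and Gm12300 overlap Myh2 and Myh1.

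Myh3 was next set against its partners, in lists chosen with earlier results known. Among the other heavy chains, the non-muscle genes Myh9 and Myh10 were the 2 of 7 that entered the fit. Both fell from GM to DM3, by 0.85 and 1.05 on the log2 scale in control (limma adjusted p = 1.28e-05 and 0.000114) and by 0.73 and 0.50 in tKO (5.66e-05 and 0.0252), although with TPM or median-of-ratios scaling 1 of the 2 was called in tKO. Myh3 thus rose while Myh9 and Myh10 fell. Myh14 of the same list did not pass the filter and was higher in DM3. Its mean was 0.0159 FPKM in control GM and 0.0823 FPKM in control DM3. In tKO it was 0.0375 FPKM in GM and 0.5065 FPKM in DM3. The GM and DM3 ranges of Myh14 did not overlap in either genotype.

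The light chain list, which holds the kinase gene Mylk2 beside light chains, rose with Myh3 in control. There 5 of 5 tested genes were called higher, against 23.2% of all tested genes. Myl1, the fast alkali light chain, and Mylpf had log2 changes of 7.60 and 7.29 (limma adjusted p = 1.14e-11 and 3.95e-10), and Myl4, the embryonic and atrial light chain, had 2.17 (0.000454). In tKO 4 of 5 were called higher, against 24.9% of all tested genes. Mylk2, the skeletal light chain kinase, had a log2 change of 0.10 there (limma adjusted p = 0.552). The list's median change was 2.17 in control and 2.02 in tKO, beside -0.15 and -0.12 over all tested genes.

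Thick filament and M-band genes rose in 5 of 5 tested genes in each genotype, when 23.2% of all tested genes were called higher in control and 24.9% in tKO. The median log2 changes in control were 2.23 for this list, 5.53 for the fast and 2.78 for the slow partners, and in tKO 2.77, 5.38 and 2.36, beside -0.15 and -0.12 over all tested genes. Myom2, an M-band protein, had log2 changes of 5.36 in control and 4.93 in tKO (limma adjusted p = 2.88e-11 and 1.11e-10). Fast fibre partners rose in 5 of 5 genes in each genotype, led by Tnnt3 with 7.21 in control and 6.50 in tKO (1.18e-11 and 5.49e-11). Slow and cardiac partners rose in 5 of 6, led by Tnnt1, slow troponin T, with 5.87 and 5.98 (3.17e-12 and 3.51e-12). Slow troponin thus rose in cells whose slow heavy chain Myh7 stayed near the floor.

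Among the 18 tested regulators of isoform choice, 8 rose and 5 fell in control (23.2% and 38.3% of all tested genes) and 9 rose and 3 fell in tKO (24.9% and 36.0%). With median-of-ratios scaling these counts were 10 and 4 in control, where 3611 and 3631 of 11832 genes were called, and 10 and 3 in tKO, where 3571 and 3587 were. Myog, the differentiation factor, had a log2 change of 2.66 in control (limma adjusted p = 2.4e-05) and also rose in tKO (1.39e-06). The slow-programme repressor Sox6 did not pass the filter, at 0.0108 ± 0.00824 FPKM in control DM3 and 0.114 ± 0.124 FPKM in tKO DM3 (SD, n = 4). Its tKO DM3 libraries ran from 0 to 0.285 FPKM, and tKO GM was at 0.0553 ± 0.0689 FPKM. These values are too low and spread to give a difference.

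Between genotypes in DM3 few partners were called. Of all tested genes, 2.02% were called higher in tKO and 1.36% lower. The median log2 change was -0.38 for the light chain list, -0.66 for the fast partners, -0.31 for the slow partners and 0.07 for the thick filament genes, beside 0.01 over all tested genes. Like Myh3, these medians differed by culture. In culture 1 they were 0.15 for the light chain list, -0.30 for the fast, 0.61 for the slow partners and 0.03 for the thick filament genes. In culture 2 they were -1.18, -1.11, -0.94 and -0.36. Mylk2 was lower in tKO by a log2 change of -1.14 (SE 0.14, limma adjusted p = 0.000119), and it was the 1 light chain list gene called. Atp2a1 was lower by -1.93 (SE 0.30, limma adjusted p = 0.0014), at 15.2 ± 10.1 FPKM in tKO and 54.2 ± 12.4 FPKM in control (SD, n = 4), and it was the 1 fast partner called. By limma 0 of 6 slow partners, 0 of 5 thick filament genes and 0 of 18 regulators were called, with 2, 2 and 3 of them at an unadjusted p under 0.05.

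Genes of myosin folding and turnover were the list with calls in the direction of the Myh3 difference. Of 7 tested genes, 3 were called higher in tKO DM3 and none lower, beside 2.02% and 1.36% of all tested genes. Smyd1, a muscle methyltransferase that binds nascent myosin, was higher by a log2 change of 0.71 (SE 0.16, limma adjusted p = 0.0199). The myosin chaperones Unc45a and Hsp90aa1 were higher by 0.54 and 0.94 (limma adjusted p = 0.0259 and 0.0239). From GM to DM3, Smyd1 rose as Myh3 did, with log2 changes of 2.32 in control and 3.02 in tKO. Hsp90aa1 went the other way, with -1.84 in control and -1.20 in tKO (limma adjusted p = 2.46e-06 and 0.000165). Unc45a had -0.74 in control (0.00011) and -0.10 in tKO (0.518). The median change between genotypes in DM3 over the list was 0.10. It was 0.21 in culture 1, with 5 of 7 genes positive, and -0.15 in culture 2, with 3 of 7. In the library-level values Smyd1 was at 5.09 to 9.55 FPKM in tKO and 2.99 to 4.64 FPKM in control, without overlap. The ranges of Hsp90aa1 overlapped, at 97.0 to 221 FPKM in tKO and 69.5 to 108 FPKM in control. Unlike Myh3, Hsp90aa1 was lowest among the tKO libraries in clone 1 culture 1, at 97.0 FPKM.

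**Figure D4:**
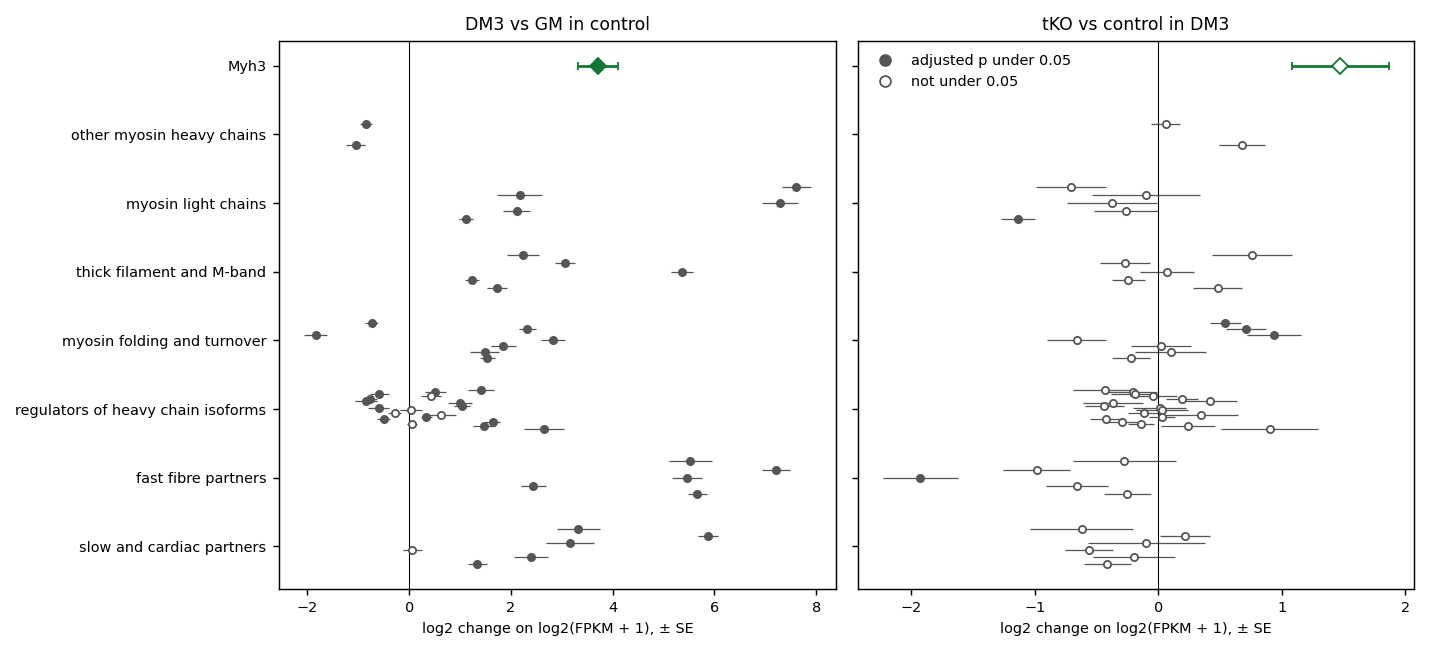
Log2 change (± SE) of Myh3 and of each tested gene in the 7 lists, from GM to DM3 in control (left) and from control to tKO in DM3 (right); filled symbols have a limma adjusted p under 0.05. Myh3 rises by 3.71 with differentiation, and its change of 1.47 between genotypes is open, while Atp2a1 at -1.93 and Mylk2 at -1.14 are filled.

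Mylpf and Ckm were lower in culture 2 of the clones, as Myh3 was, and the ratio of Myh3 to each partner was therefore formed in every DM3 library. This was chosen after the values were seen. The ratio of Myh3 to Mylpf was 0.0493, 0.0366, 0.0237 and 0.0485 in control and 0.147, 0.152, 0.171 and 0.111 in tKO, so that the 2 cultures of a clone lay closer together than for Myh3 alone. The ratio to Actn3 still differed by culture, at 0.426 and 0.0887 in clone 1 and 0.555 and 0.155 in clone 2 (cultures 1 and 2). The tKO range was above the control range for 15 of 21 genes of 4 lists. These were 5 of 5 genes of the light chain list (Mylk2 among them), 1 of 5 thick filament, 4 of 5 fast and 5 of 6 slow partner genes. The same held for 28.2% of 11729 genes with fragments in every DM3 library. Since Myh3 is the numerator of all these ratios, they are not independent of each other. The geometric mean of the ratio was 3.78-fold higher in tKO for Mylpf, 11.8-fold for Atp2a1 and 1.55-fold for Mybph, a myosin-binding protein for which the ranges overlapped.

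**Figure D5:**
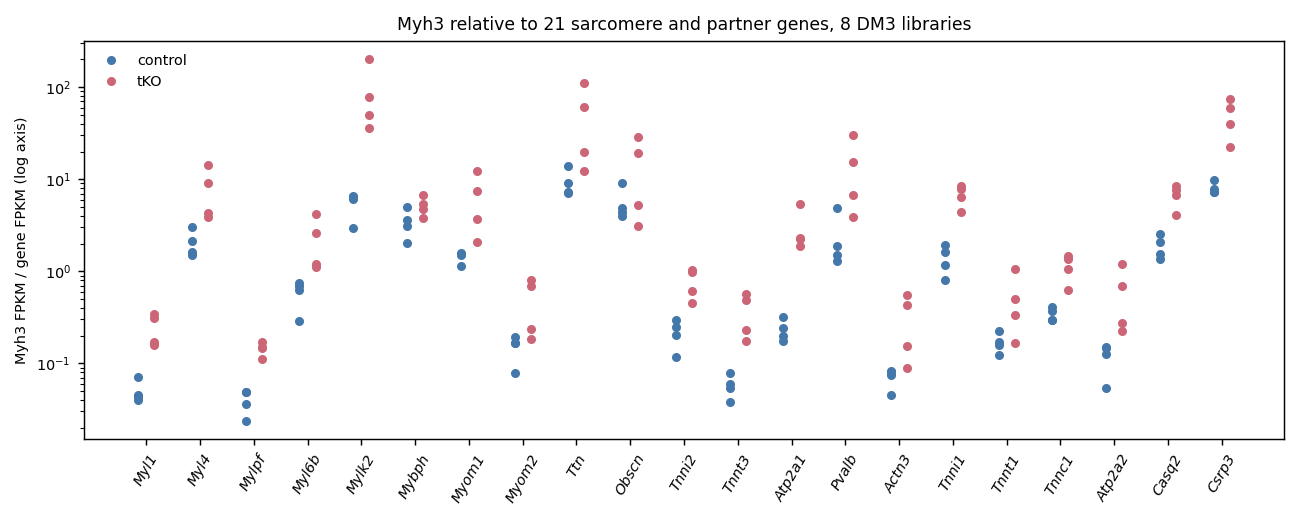
Ratio of Myh3 FPKM to the FPKM of 21 sarcomere and partner genes in the 4 control and 4 tKO DM3 libraries, on a log axis, 1 point per library. The tKO points lie above the control points without overlap for 15 of the 21 genes.

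Over the 8 DM3 libraries, the genes outside the family whose log2(FPKM + 1) followed Myh3 most closely were 1700019L03Rik (Pearson's r = 0.93), Evc2 (0.93), a ciliary component of hedgehog signalling, and Actc1 (0.92), cardiac alpha actin, among 11830 genes compared. These r values describe libraries that share clones and cultures. Actc1 was at 17.1 and 9.70 FPKM in culture 1 of clones 1 and 2, at 2.08 and 0.633 FPKM in culture 2 and at no more than 0.840 FPKM in control DM3. Within the family, Pearson's r with Myh3 was 0.95 for Myh2, 0.88 for Myh1, 0.56 for Myh8 and -0.53 for Myh7, as a description over the same 8 libraries. The part of sequence shared with Myh3 in these values was not tested.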

How the data were processed

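The authors deposited 1 table of FPKM values for 16 libraries, with each gene's length and position. The submitters' processing notes name mm10, STAR and DESeq, without versions or roles. FPKM times length gave whole multiples of 1 step per library, from which the fragments per gene were recovered. Genes with a mean of at least 0.5 FPKM (11832) were fitted on log2(FPKM + 1) with limma 3.58.1 in R 4.3.3, as group means over all 16 libraries with trend and robust moderation and Benjamini-Hochberg adjustment. This scale understates the change of low genes. On simulated data, 96 of 100 genes changed 2-fold and 97 of 100 changed 4-fold were recovered, with 13 false calls. The simulated libraries were independent, with the same fixed dispersion for every gene and no line, clone or culture effect. These rates therefore do not measure recovery or false calls in the real libraries. Members under the filter were compared by exact permutation of FPKM over 70 arrangements, two-sided. A floor of 3 fragments and counting intervals cover counting error only. Alternatives were pseudocount 0.1, other filters, TPM, median-of-ratios scaling, voom, other moderation, subsets of libraries, line effects, replicate blocks and leaving out libraries or lines. Members and gene lists were chosen with earlier results of these data known. Named list genes were at most 4 per list and comparison with the largest change among those called. Genes outside that rule are named as markers, as partners of Myh3, for their values in a library or, for Sox6 and Myh14, as list genes under the filter. Python 3.11.15 and pandas 2.3.3 were used.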

Additional observations from a re-analysis of the deposited data

Results flagged for a closer look

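In 2 of 24 member and group combinations with more than 3 fragments in a library, 1 library stood apart from the other 3 of its group. The rule compares the gap to the next library with the group's range. It flags about 1 in 20 groups of normally distributed values, a rate that need not hold for counts near the floor. Myh4 in control GM, line 1 culture 2, was at 0.883 FPKM, and the gap to the next library was 0.954 of the group's range. Myh8 in tKO GM, clone 2 culture 1, was at 0.0207 FPKM (4 fragments) with the other 3 libraries at 0, so the gap was the whole range whatever that value was.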

How the results depend on the processing

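The count of called heavy chain genes between genotypes in DM3 was 0 and became 1 (Myh3) with TPM, with line averages as units, and with a replicate block for culture, either 1 for all libraries (limma adjusted p = 0.0362) or 1 per stage (0.0237). Leaving out 1 library gave counts of 0 to 1. In tKO the count from GM to DM3 was 1 and became 4 with no filter. Counts did not change under the other alternatives run. The main fit did not pair libraries by culture number, since the labels state no pairing. Deviations of same-numbered libraries from their group means correlated at -0.22 to 0.56 (mean 0.19) across genotypes in DM3, over 0.1 in 5 of 8 pairs. They correlated at 0.10 to 0.45 (mean 0.25) in GM (7 of 8) and at 0.08 to 0.32 (mean 0.20) across stages (6 of 8). These mostly positive values do not show the libraries to be unpaired. The choice decided the Myh3 call, which was missed without a block (limma adjusted p = 0.0512). The log2 change of Myh3 between genotypes in DM3 ranged from 1.09 to 1.85 over 32 alternatives, with 26 on the same side of the threshold. Genotype calls over all genes fell from 400 to 113 with only the compared libraries and to 131 with line averages, and were 748 with the block within each stage. They were 208, 241, 244 and 259 without control DM3 line 1 culture 2, tKO DM3 clone 1 culture 2, control DM3 line 1 culture 1 or control DM3 line 2 culture 1, 854 without tKO DM3 clone 1 culture 1, and 49, 64, 565 and 1136 without control line 1, control line 2, clone 1 or clone 2. Signs turned in differences, in FPKM, that passed no test. Leaving out 1 library moved tKO against control in GM from -0.288 to 0.00593 for Myh4 (positive without control line 1 culture 2), from -0.0335 to 0.000196 for Myh1 and from -0.0176 to 1.98e-05 for Myh2 (both positive without control line 2 culture 2). It moved DM3 against GM in control from -0.2902 to 0.00409 for Myh4 and from -0.00319 to 0.0122 for Myh2 (negative without DM3 line 1 culture 1, GM line 1 culture 1 or GM line 2 culture 1). Without control line 1 these were 0.00553 for Myh4 and -0.00285 for Myh2, and without clone 2 Myh7 in tKO was 0.000294. Exact tests with a line left out cannot pass the threshold. The exact tests on the log2(FPKM + 1) scale and the 2 values of Myh1 without a GM library were added after seeing the data.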
